A study of Drosophila melanogaster with 14 samples.

Results

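ATAC-seq uses a transposase that inserts sequencing adapters into accessible DNA, and it was applied here to wing imaginal discs, the larval epithelium of Drosophila melanogaster that forms the adult wing. The regions described here were open in nearly every library and had no mononucleosome peak, that is, no peak of DNA fragments long enough to span 1 nucleosome. They were chosen by the presence of peaks: nucleosome-free peaks of all 14 libraries were merged where they overlapped or touched, and a region was kept if at least 12 of the 14 lists had a peak in it and no mononucleosome peak of any library overlapped it. Of 33226 merged regions, 16643 were in at least 12 lists (constant regions), and 1529 of these, 9.19% of the constant and 4.60% of all regions, had no mononucleosome peak. They are called lone regions below. The other 15114 constant regions overlapped a mononucleosome peak of at least 1 library.

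All discs came from larvae of the last instar. Regenerating discs, in which apoptosis had been induced, were collected at 0, 15 and 25 h, control discs kept in the same conditions without induced death at the same times, and undamaged discs of such larvae outside the time course formed the group L3. Each of the 7 groups had 2 libraries of 10 pooled discs. The labels name a regeneration and a control genotype without giving alleles or the driver of cell death, so damage and genotype cannot be told apart in any comparison of the 2. Replicates are named by number only, so p-values cover only how far these libraries vary, in part perhaps for technical reasons.

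In open chromatin the transposase releases short fragments from DNA free of nucleosomes and longer ones that span a nucleosome, and active promoters and enhancers usually give both, a short-fragment peak over the bound factors and positioned nucleosomes beside it. A peak list records where the caller found signal above its background, so a missing mononucleosome peak is a missing call and no measure of nucleosome occupancy. The lists held 19174 to 24139 nucleosome-free peaks per library but only 11145 to 13387 mononucleosome peaks. Read depth is not recorded in them. The peak names inside all 14 mononucleosome lists carry the tag "nucl-free", so the fragment class rests on the labels of the files; the shortest peak was 211 bp in the mononucleosome lists and 75 bp in the nucleosome-free lists. Genes that mark the wing disc had a nucleosome-free region at a start in all 14 lists in 8 of 8 cases (nub, vg, sd, ap, rn, Dll, pdm2 and bi), markers of myoblasts in 2 of 5 (zfh1 and Mef2), of trachea in 2 of 3 (trh and vvl), of neurons in 1 of 2 (elav), and of hemocytes and fat body in 0 of 4 and 0 of 3.

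The sequences of some high-ranking lone regions are shown as examples of the DNA they cover. Each is 150 bases around the strongest summit on the plus strand of Release 6 (RefSeq, dm6 coordinates). Regions of 1 chromosome arm and windows that hold an annotated UTR were not eligible, so several higher-ranking regions are not shown. Capitals mark matches to 18 short motifs searched on both strands, among them the DRE TATCGATA, its core CGATA bound by BEAF-32, the E-box CAGCTG, the M1BP motif GGTCACAC, the Grainy head motif AACNGGTT and the TATA core TATAAA. The first 3 are the highest-ranking eligible regions at transcription starts, those of mud, which orients the mitotic spindle, alpha-Man-Ia, a mannosidase that trims N-glycans, and a U1 snRNA gene, a part of the spliceosome (chrX:14247558-14247707, chrX:10309116-10309265 and chr3R:23826309-23826458).
mud: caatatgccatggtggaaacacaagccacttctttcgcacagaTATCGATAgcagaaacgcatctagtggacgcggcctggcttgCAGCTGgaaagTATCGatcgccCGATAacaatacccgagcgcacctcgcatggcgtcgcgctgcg
alpha-Man-Ia: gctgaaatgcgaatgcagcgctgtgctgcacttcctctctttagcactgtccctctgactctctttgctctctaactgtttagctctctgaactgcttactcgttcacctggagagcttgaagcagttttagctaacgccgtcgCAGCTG
snRNA:U1:95Cc: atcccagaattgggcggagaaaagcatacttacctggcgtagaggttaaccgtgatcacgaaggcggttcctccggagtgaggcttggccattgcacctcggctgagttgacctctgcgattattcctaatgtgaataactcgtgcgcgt

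The next 3 are the highest-ranking eligible lone regions away from starts. That of CR41519 (chr2L:23512788-23512937) is a run of short purine repeats, that of CR42530 (chr2L:23343607-23343756) is DNA whose central 50 bases occur 6 times in the assembly, and that of CG14621 (chrX:22432989-22433138) is an AT-rich tandem repeat in an annotated rover element with a GC content of 24%.
CR41519: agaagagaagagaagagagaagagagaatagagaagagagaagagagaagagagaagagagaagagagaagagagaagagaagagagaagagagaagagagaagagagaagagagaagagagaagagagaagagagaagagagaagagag
CR42530: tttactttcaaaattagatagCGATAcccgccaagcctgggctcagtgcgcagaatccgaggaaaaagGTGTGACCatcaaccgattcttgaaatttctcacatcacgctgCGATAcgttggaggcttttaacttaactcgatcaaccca
CG14621: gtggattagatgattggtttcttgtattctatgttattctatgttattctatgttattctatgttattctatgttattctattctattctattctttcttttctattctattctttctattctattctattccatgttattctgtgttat

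TATAAA was the motif whose share differed most between lone and other constant regions, and the next 3 sequences are the highest-ranking eligible lone regions that hold it and are not shown above: 1 near mir-10404-5 (chrX:23441620-23441769), 1 near CG33777 (chr3L:4553522-4553671) and 1 in an intron of Abd-B, the Hox gene of the posterior abdomen (chr3R:16958439-16958588).
mir-10404-5: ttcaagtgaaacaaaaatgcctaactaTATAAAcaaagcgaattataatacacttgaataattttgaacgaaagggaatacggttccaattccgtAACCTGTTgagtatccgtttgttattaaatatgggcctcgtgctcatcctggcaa
CG33777: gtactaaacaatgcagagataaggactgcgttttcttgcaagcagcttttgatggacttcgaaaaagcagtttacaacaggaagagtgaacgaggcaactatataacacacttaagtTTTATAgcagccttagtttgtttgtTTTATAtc
Abd-B: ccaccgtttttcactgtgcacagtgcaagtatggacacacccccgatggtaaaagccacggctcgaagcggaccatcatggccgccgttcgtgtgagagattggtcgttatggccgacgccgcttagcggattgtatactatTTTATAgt

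Lone regions were narrow. Their median width was 186 bp (lower and upper quartile 155 and 221 bp), against 314.5 bp (208 and 458 bp) for the other constant regions, and the widest was 495 bp against 2451 bp. A wider region has more room to touch a mononucleosome peak, so width is tied to the rule that chose the regions and is given as a description. They also ranked lower. Each peak carries the authors' fold enrichment over the caller's background, and its rank within its own list was written as a percentile, with 100 the highest. The median percentile over lists was 46.1 (quartiles 29.6 and 63.1) for lone regions and 63.8 (43.1 and 81.9) for the other constant regions, and the median fold 5.98 and 7.97. Constant regions with a mononucleosome peak in 1 library had a median percentile of 46.6, and those with one in all 14 had 72.6. Rank, like width, is therefore given as a description. Of the lone regions, 868 were in all 14 lists, 332 in 13 and 329 in 12.

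**Figure D1:**
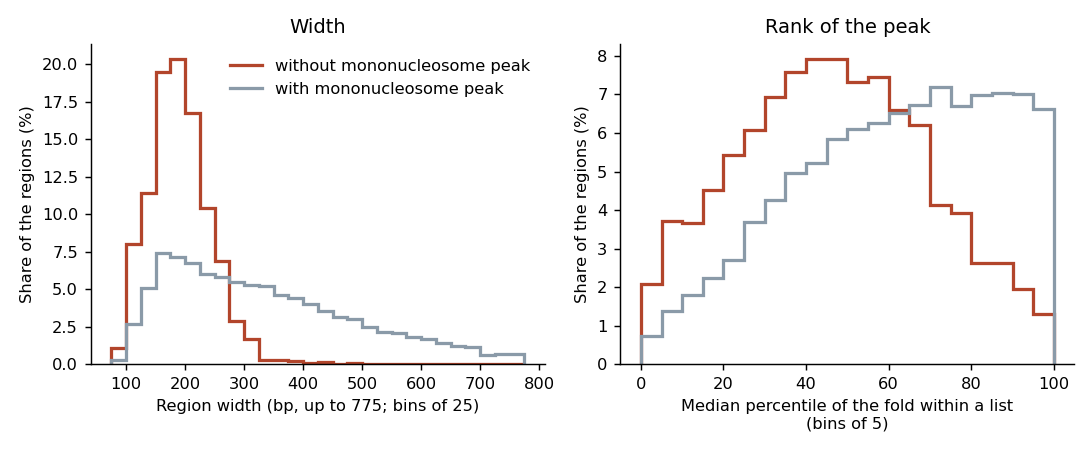
Distribution of region width in bp (left, up to 775 bp) and of the median percentile of the authors' fold within a list (right) as the share of regions per bin, for the 1529 lone regions (red) and the 15114 other constant regions (grey). Lone regions crowd around 186 bp and spread broadly in rank, with a median at the 46th percentile. The other constant regions reach larger widths and higher ranks.

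Most lone regions stood apart from mononucleosome peaks by more than the DNA of a nucleosome. The nearest mononucleosome peak of any library lay a median of 1050 bp away (quartiles 402 and 2784 bp, highest 94625 bp). It lay within 150 bp for 64 regions (4.19%), within 500 bp for 488 (31.9%) and within 1000 bp for 750 (49.05%), and 144 regions had 1 on both sides within 1000 bp.

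The widest lone region (3R, 13538800 to 13539294, 495 bp, median percentile 78.9) was intergenic, 2619 bp from lncRNA:TS26. The next were in an intron of pigs (431 bp, percentile 39.1), in the 28S rRNA pseudogene 28SrRNA-Psi:CR45859 (430 bp, 89.8, with 9 copies of its summit sequence), near the homeobox gene B-H1 (418 bp, 27.8) and in a roo element near CG13299 (393 bp, 62.9, with 255 copies). The region farthest from a start lay 220027 bp from that of CG46302, in an intron of DIP-lambda (2R, 634658 to 634787), and stood at 68.5 to 78.1 in regenerating, 51.4 to 79.0 in control and 56.2 and 59.2 in L3 libraries. These extremes were thus partly in repeated DNA, and regenerating and control discs overlapped at the last.

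The values ran on without a break across the limits of the rule. The 298 regions in 11 lists with no mononucleosome peak had a median width of 178 bp, a median percentile of 28.4 and 18.8% within 200 bp of a start, and the 329 lone regions in exactly 12 lists had 174 bp, 34.3 and 21.9%. Lone regions in all 14 lists had 191 bp, 57.3 and 29.8%. On the other side of the rule, the 489 constant regions with a mononucleosome peak in a single library had 220 bp, 46.6 and 33.95%, and the 8847 with one in all 14 libraries 387 bp, 72.6 and 49.55%. Just inside the limit, the highest-ranking regions in 12 lists had CG10947 (median percentile 71.4), mir-4951 (74.5) and CG32440 (69.6) as the nearest genes. That of mir-4951 lay in a non-coding exon of lncRNA:Hsromega, 8178 bp from the mir-4951 start. Just outside the limit, the highest-ranking regions in 11 lists had CG40813 (91.0), asRNA:CR45139 (76.6) and CG2157 (72.3).

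Lone regions were less often promoters than the other constant regions. Of the 1529, 412 (26.95%) lay within 200 bp of an annotated transcription start, against 6483 (42.9%) of the others and 30.03% of all merged regions, and 335 (21.9%) held a start. The median distance to the nearest start was 1192 bp against 426.5 bp. The largest distance class was 1000 to 5000 bp, with 32.1% of lone and 21.25% of the other regions. The gap was also present among regions of 155 to 221 bp, the quartiles of the lone regions' width. There 25.7% of 771 lone and 63.5% of 2848 other constant regions were at a start. Rank was not matched: lone regions of this width had a median percentile of 46.3, the others 67.1. Regions at a start ranked higher than regions away from a start, among lone and other constant regions alike. The part of rank in the gap was not tested. Starts on both strands within 200 bp, the mark of a bidirectional promoter, were found at 25 lone regions, 6.07% of those at a start, against 15.05% of the others at a start. The shares of these regions were compared with no test, since neighbouring regions are not replicates.

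**Figure D2:**
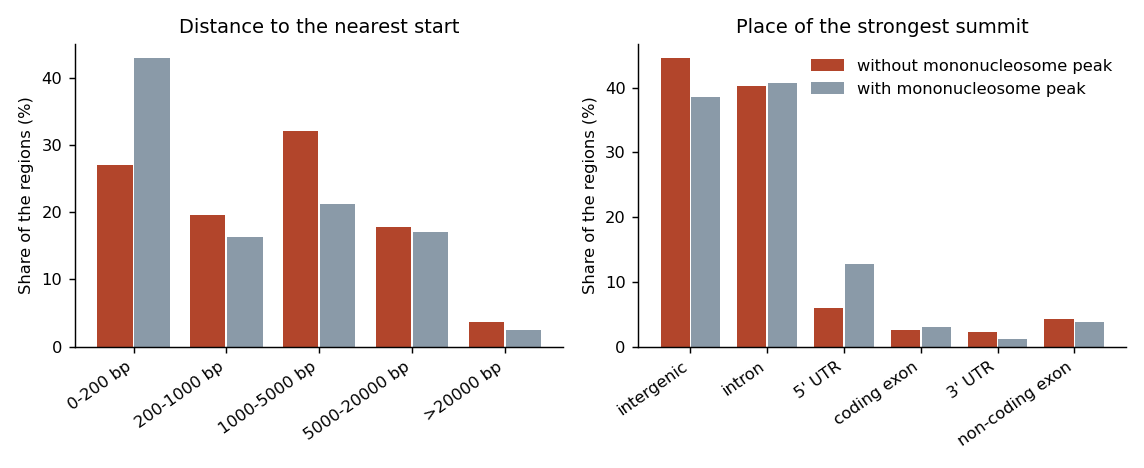
Share of the 1529 lone regions (red) and the 15114 other constant regions (grey) by distance to the nearest transcription start (left) and by the annotation at the strongest summit (right). Within 200 bp of a start lie 26.95% of lone and 42.9% of other regions, and the largest class of lone regions is 1000 to 5000 bp.

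By the annotation at the strongest summit, 681 lone regions (44.5%) were intergenic, 616 (40.3%) intronic, 92 (6.02%) in a 5' UTR, 65 (4.25%) in a non-coding exon, 40 (2.62%) in a coding exon and 35 (2.29%) in a 3' UTR. The other constant regions had 38.6% intergenic, 40.7% intronic and 12.8% in a 5' UTR. GC content in the 200 bp around the summit had a median of 46% in lone and 48% in other constant regions. At a start the median was 44 against 45.5%, and away from a start 46.5 against 49.5%. Lone promoters were narrower than lone distal regions (170 against 192 bp) and ranked higher (median percentile 55.3 against 42.4). The same order of ranks held in the other constant regions, with 75.5 at a start and 53.5 away from one.

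Repeated DNA took a larger share of lone regions. An annotated transposable element overlapped 66 of them (4.32%), against 1.41% of the other constant regions, and the 50 bases at the summit occurred more than once in the assembly in 75 (4.905%) against 1.575%. How reads that map to several places were treated is not given in the sources used here, so the fold of these regions may hold reads from other copies. The top of the rank order drew on them most. The region of highest rank (2R, 25258233 to 25258371, intergenic, 2915 bp from CG9380) lay in an invader4 element, had its summit sequence 4 times in the assembly, and stood between the 99.96th and the 99.99th percentile in all 14 libraries. Among the 10 regions of highest median percentile, 5 had a summit sequence found more than once, with 4 to 9 copies. The regions near CR41519 and CG14621 were among the 10 but not among these 5, although their sequences shown above are short repeats.

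Single-copy regions reached the top as well. An intergenic region 7207 bp from lncRNA:CR46075, with no annotated element and a GC content of 52%, had the second highest rank, at 99.85 to 99.99 over the 14 libraries. The region at the start of mud (X, 14247553 to 14247757), in a non-coding exon of an antisense RNA, stood at the 97.8th to 99.7th percentile in regenerating (median 98.97) and the 95.0th to 99.7th in control libraries (median 98.4). An intergenic region 1544 bp from CG33777 (3L, 4553497 to 4553692) stood at 90.6 to 99.2 in regenerating and 87.7 to 99.15 in control libraries. In both, regenerating and control libraries overlapped. The spread between libraries differed from region to region: the region near CG14621 ran from 68.9 to 99.98 and that near CR41519 from 80.6 to 100. Neither was multi-copy by its summit sequence, but both lie in the short repeats shown above, so they are not taken as single-copy DNA. The multi-copy regions near CR42530 and in DIP-lambda ran from 97.4 to 99.99 and from 96.2 to 99.9. Near CR42530 the regenerating libraries (99.93 to 99.99) all stood above the controls (97.4 to 99.68). That region was not called in the fit of ranks described below, where 1.27% of lone and 1.40% of all regions were so parted.

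Genes of small structural RNAs, such as tRNA genes, which RNA polymerase III transcribes from promoters inside the gene, were a further class. A lone region lay at the start of 25 tRNA genes, 3 snRNA genes (snRNA:U1:95Cc, snRNA:U2:14B and snRNA:U2:34ABa), 2 5S rRNA genes and 1 pre-rRNA gene, and of no snoRNA gene. Lone regions were 20.3% of all constant regions at a tRNA start and 18.8% of those at an snRNA start, but 5.61% of those at the start of a protein-coding gene. The tRNA regions had a median width of 195 bp and a median percentile of 59.4 (range 23.1 to 94.7), below the 81.4 of tRNA regions with a mononucleosome peak. These genes are members of families of near-identical copies, so reads can be split between them, and their values are uncertain. At the start of snRNA:U1:95Cc the lone region had a median percentile of 92.8.

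Lone regions were spread over 1322 nearest genes, of which 1150 had 1, 143 had 2, 24 had 3, 4 had 4 and 1 had 5. The gene with 5 was Abd-B, and 4 of its regions were intronic and 1 lay at a start in the 5' UTR. The median percentile of these 5 regions, in order along 3R, was 72.5 (16945665 to 16945823), 95.3 (16957887 to 16958112), 97.2 (16958404 to 16958602), 65.4 (16963589 to 16963860) and 85.4 (16970058 to 16970285). The strongest stood at 90.25 to 97.8 in regenerating, 89.5 to 97.9 in control and 98.8 and 99.5 in L3 libraries. All 5 had a peak in every library and overlapped between regenerating and control discs. The genes with 4 were PAN3, a subunit of a poly(A) deadenylase, Pld, a phospholipase, meru, a cell polarity factor, and mtgo.

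Of the 7735 genes whose start was the nearest to a constant region, 17.1% had a lone region. Genes with more constant regions have more chances to hold one, and the counts below were not adjusted for this. Among wing patterning factors 9 of 28 had a lone region, none at a start: vg, bi, ush, tup, ct, ptc, en, ci and hh. The highest-ranking lone region of ush, a zinc finger partner of GATA factors, stood at 67.6 to 84.7 in regenerating and 59.0 to 78.1 in control libraries. That of ct, a homeodomain factor of the wing margin, stood at 27.5 to 52.9 and 39.2 to 49.8, and that of bi, a T-box target of Dpp, at 17.55 to 50.4 and 28.8 to 61.8. Regenerating and control libraries overlapped for each of these 3. Another lone region of ush (2L, 527289 to 527462, in 12 lists) had a median percentile of 2.47.

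Genes of the signalling pathways of the disc had lone regions of middle to low rank. In the Wnt list 4 of 17 genes had one, among them the ligands wg (2L, 7306192 to 7306428, 731 bp from the start, median percentile 41.6) and Wnt4 (32.6) and the receptor fz2 (14.4, at the start). In the Dpp list 2 of 10 had one, with dally, a glypican that shapes the Dpp gradient, at 63.6 (55.3 to 67.9 over all 14 libraries, at the start), and shn, a zinc finger cofactor of the pathway, with 2 of its regions at 37.6 and 24.7. The Notch list had 4 of 10, with the protease kuz at 62.9, the ligand Delta at 33.2 and the receptor N at 30.4. In the EGFR list 5 of 10 had one, with the inhibitor sty at 60.8, the ETS repressor aop at 45.3 and the receptor Egfr at 31.8. In the Hippo list 2 of 9 had one, the cadherin ds at 18.1 and the upstream regulator ex at 10.9. At each of the regions named here the regenerating and control ranges overlapped, and none was called in the fit of ranks described below.

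Damage and stress genes were described in the same way, beside the 17.1% over all genes. The JNK and damage list had 3 of 16 genes (18.8%): Xrp1, a bZIP factor of the damage response (3 regions, the highest at 62.8), its partner Irbp18 (50.9) and Timp, an inhibitor of matrix proteases (36.2, in 12 lists). The highest region of Xrp1 (3R, 18924379 to 18924522, intron, 309 bp from a start) stood at 57.6 to 69.0 in regenerating and 42.8 to 72.3 in control libraries. The JAK/STAT list had 2 of 7 (28.6%), the cytokine upd3 with regions at 2.99 and 1.93, near the bottom of the lists, and Stat92E at 17.1. The cell death list had 2 of 6 (33.3%), p53 at 80.4 and the caspase inhibitor Diap1 with regions at 22.0 and 15.05. The region of p53 stood at 66.4 to 88.3 in regenerating and 67.97 to 88.8 in control libraries. Oxidative and heat stress genes had 0 of 11.

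In the remaining lists, ecdysone response genes had 4 of 10 (Eip74EF, Eip75B, Eip78C and Hr3), Polycomb and trithorax group genes 2 of 13 (ph-d and osa), insulator and promoter factors 1 of 12 (Chro), cell cycle genes 1 of 15 (Myc) and proteasome subunits 1 of 25 (Rpn9). Chro, a chromodomain protein of interbands and the spindle, ranked at 95.3 (range 88.96 to 97.8, at the start in the 5' UTR). Cytoplasmic ribosomal protein genes had 9 of 68, 7 of them at the start. RpS18 ranked at 94.6, RpL8 at 82.7 and RpLP2 at 74.6, the last 238 bp from the start. Mitochondrial ribosomal protein genes had 7 of 31, 5 at the start. The region of mRpL50 ranked at 92.4, that of mRpS5, 987 bp from the start, at 85.7 and that of mRpL55 at 69.3. Translation initiation factors had 2 of 25, both at the start, eIF4E7 at 76.15 and eIF3i at 65.3. Over all 1322 genes with a lone region, 406 had one at a start; no difference between lists was tested.

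The motif content of lone regions was close to that of the other constant regions. In the 200 bp around the summit, 255 lone regions (16.7%) held TATAAA, against 12.2% of the other constant regions, 12.8% of all regions and 26.3% of windows of the same length at the 23136 annotated start positions. The share was 21.6 against 15.8% at starts and 14.9 against 9.43% away from them. Among motifs of housekeeping promoters, DRE was found in 2.49 against 4.21% and M1BP in 2.22 against 4.66%, shares that also reflect how many regions lay at starts. At starts DRE was found in 6.80 against 9.33% and M1BP in 6.31 against 10.3%, and away from starts in 0.895 against 0.371% and 0.716 against 0.417%. Other core promoter motifs were divided. At starts Motif 7 (CAACNCTA) had the same order, with 2.18 against 3.36%. Motif 6 (GGTATTTT) had the opposite order, with 6.80 against 5.51%, as had the E-box, with 20.4 against 17.9%. GAGAGAG, bound by the GAGA factor, was found in 11.4 against 11.5%, and the Grainy head motif in 10.4 against 9.02%. CATTCC, the core bound by Scalloped, was found in 7.91 against 9.73%, and the AP-1 motif TGANTCA of JNK targets in 3.92 against 4.49%. The DRE contains the BEAF-32 core CGATA, so these 2 overlap. The widest gap over 18 motifs was 4.52 percentage points, for TATAAA. Lone regions also had the lower GC content, and its part in this gap was not tested.

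**Figure D3:**
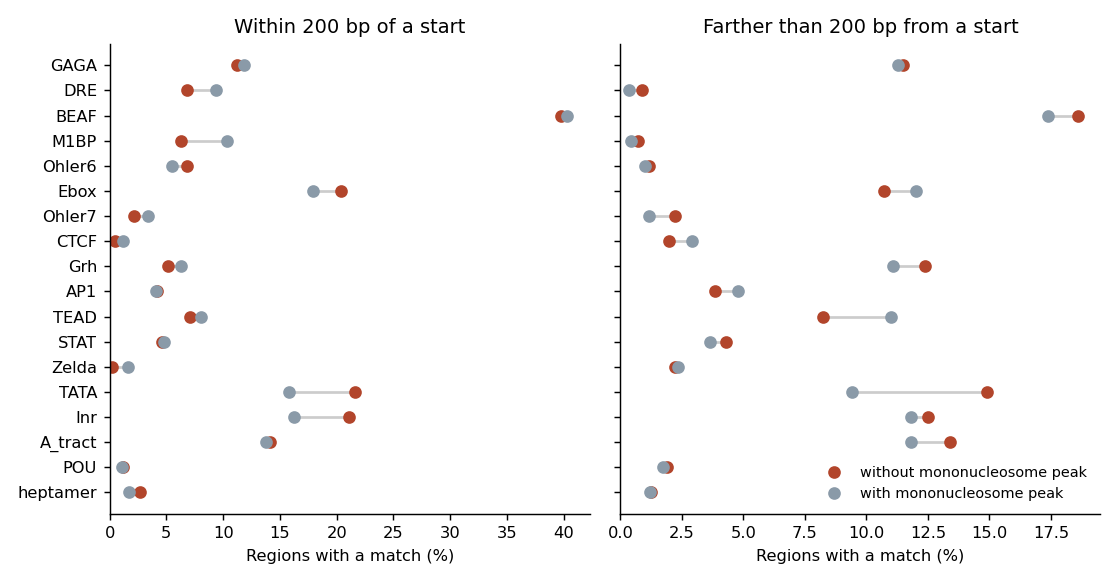
Share of regions with at least 1 motif match in the 200 bp around the summit, for lone (red) and other constant regions (grey), within 200 bp of a start (left) and farther away (right). Most pairs of points lie close together; TATA lies farther right for lone regions in both panels, at 21.6 against 15.8% and at 14.9 against 9.43%.

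The first question across groups was whether lone regions as a class ranked differently in damaged discs. The median percentile of lone peaks within a list ran from 44.5 to 49.7 in the 6 regenerating libraries (median 48.4), from 39.8 to 50.01 in the 6 controls (median 43.8) and was 45.1 and 49.2 in L3. The groups overlapped: control 15 h replicate 2 stood above every regenerating library. The means were 47.75 ± 2.08 and 44.4 ± 4.11 (SD, n = 6 each), a difference of 3.37 points (exact permutation of labels within time, two-sided, p = 0.0833, adjusted over 3 values 0.125; the smallest possible p was 0.00926). By time the difference was 4.59 at 0 h, -1.35 at 15 h and 6.85 at 25 h. The regenerating lists were also longer (23071 ± 973 against 21383 ± 1469 peaks, SD, n = 6 each, exact permutation p = 0.0463). The cause of the difference in rank was not tested. With every list cut to the shortest by −log10 q, an alternative chosen after the data were seen, the difference was 0.268 points (exact permutation p = 0.926). The other constant regions differed by 2.13 points in the full lists (exact permutation p = 0.0556).

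The peaks of lone regions had a median width of 130 to 147 bp in regenerating libraries (median 141.5), 119 to 143 bp in controls (median 131.5) and 132 and 143 bp in L3. The means were 140.2 ± 5.78 and 130.5 ± 8.31 bp (SD, n = 6 each), a difference of 9.67 bp (exact permutation p = 0.0833, adjusted 0.125), and the ranges overlapped. In lists of equal length the difference was 9.75 bp (exact permutation p = 0.0926). By time it was 17 bp at 0 h, -0.5 bp at 15 h and 12.5 bp at 25 h, and neither width nor rank passed the threshold.

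Lone regions without a peak numbered 16 to 119 per regenerating library (median 37), 15 to 201 per control library (median 105) and 19 and 89 in L3. The means were 45.5 ± 37.1 and 101.5 ± 62.0 (SD, n = 6 each), a difference of -56 (exact permutation p = 0.13, adjusted 0.13), and -9.17 in lists of equal length (exact permutation p = 0.528). The 201 missing regions belonged to control 0 h replicate 1, the shortest list, with 19174 peaks. That list alone lacked 83 lone regions that every other list had. Every library had missing peaks, 990 in all, but unevenly. After control 0 h replicate 1, the highest numbers were in replicate 1 of control 25 h (120), regenerating 15 h (119) and control 15 h (106). Among lone regions in 12 lists, 69 different pairs of libraries were the missing pair. The commonest was control 0 h replicate 1 with regenerating 15 h replicate 1, in 31 regions. In 29 regions the pair was both libraries of 1 group.

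**Figure D4:**
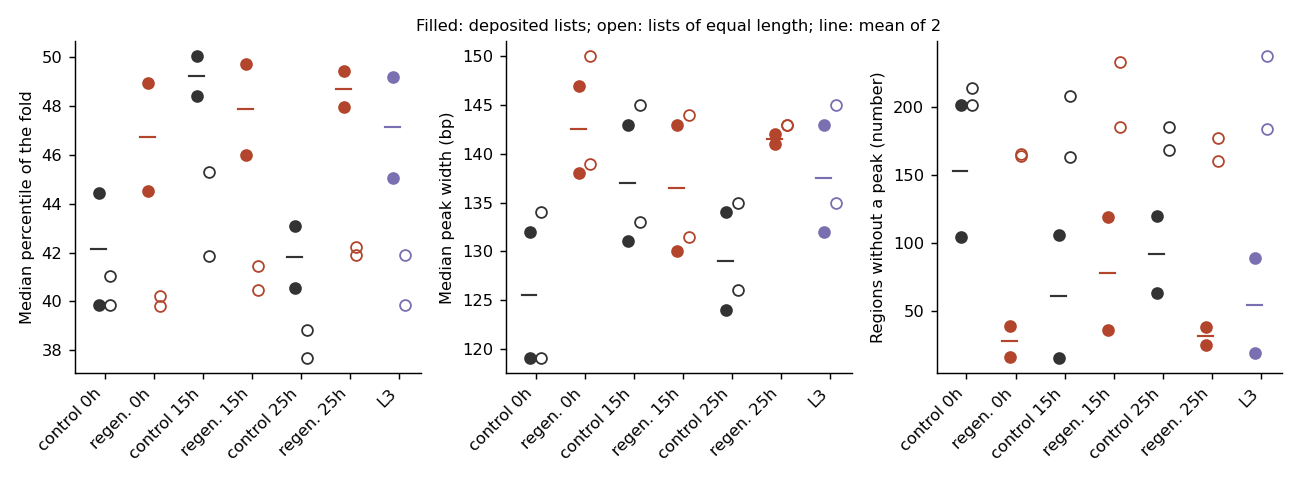
Values of lone regions in each library by group: median percentile of the authors' fold (left), median peak width in bp (middle) and number of lone regions without a peak (right). Filled points are the lists as deposited with the mean of 2 as a line, open points are lists cut to equal length; regenerating (red) and control (black) libraries overlap in each panel, and the gaps in rank and missing peaks shrink in the open points.

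Presence in both libraries of one condition and neither of the other is limited by the rule, since a lone region can be missing from 2 lists at most, so the counts are given with the background and nothing is read from them. At 0 h 12 lone regions were gained and 2 lost with damage, where 5.41% and 0.834% of all regions with a peak in at least 2 of the 4 libraries were. At 15 h 0 were gained and 5 lost (background 3.19% and 2.54%), and at 25 h 9 were gained and 0 lost (5.27% and 1.33%). The gained regions of highest rank at 0 h lay at the starts of CG10947 (2L, 20399387 to 20399538) and CG2260 (X, 8121094 to 8121227), 36 bp from Osi7, an Osiris family gene (3R, 6248682 to 6248958), and in an intron of lncRNA:iab8 (3R, 16920479 to 16920648). The gained region of highest rank at 25 h lay 2955 bp from CG7544, and the lost one at 0 h 331 bp from CG17777.

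Single regions were compared by their percentile among the 13545 regions with a peak in all 14 lists, so every list ranked the same regions. Differences in read depth could still enter. The fit was made with limma over all 14 libraries, with Benjamini-Hochberg adjustment over all 13545. Of these, 868 were lone regions. Averaged over the 3 times, 5 lone regions ranked higher and 4 lower in regenerating discs, 0.576% and 0.461% of the 868, where 0.480% and 0.421% of all regions did, so the shares were near the background. At 0 h 0 lone regions were called (background 0.0295%), at 15 h 0 (background 0%) and at 25 h 1 (background 0.0443%). An unadjusted p under 0.05 was found at 0 h in 70 lone regions (8.06%, against 8.4% of all 13545), at 15 h in 87 (10%, against 8.83%) and at 25 h in 102 (11.8%, against 8.53%). In regenerating discs 35 of these ranked higher and 35 lower at 0 h. At 15 h 25 ranked higher and 62 lower, and at 25 h 73 higher and 29 lower. Whatever the p, 50.6, 42.3 and 59.9% of lone regions ranked higher at 0, 15 and 25 h. Of all 13545 regions, 46.9, 52.6 and 45.8% did. The regenerating and control libraries did not overlap at all in 11 of the 868 regions, 5 of them higher and 6 lower in regenerating discs, where 1.40% of all regions were so parted. Without 1 library of regenerating 0 h, control 25 h or regenerating 25 h (either replicate of each), 4 or 5 lone regions were called in place of 9.

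The 4 lone regions that were called without any 1 of the 14 libraries all lay in intergenic DNA, and their sequences are shown for that reason (chrX:6660032-6660181, chrX:22049671-22049820, chrX:7066770-7066919 and chr2L:1006613-1006762). Capitals mark the same 18 motifs: GAGAGAG near CG40813, the A tract AAAAAAA near asRNA:CR46486 (2 overlapping matches), and near CG12541 an A tract, the AP-1 motif TGANTCA and CGATA.
CG3224: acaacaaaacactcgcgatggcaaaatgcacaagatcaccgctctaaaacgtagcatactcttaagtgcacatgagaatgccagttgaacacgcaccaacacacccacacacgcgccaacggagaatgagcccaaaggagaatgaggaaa
CG40813: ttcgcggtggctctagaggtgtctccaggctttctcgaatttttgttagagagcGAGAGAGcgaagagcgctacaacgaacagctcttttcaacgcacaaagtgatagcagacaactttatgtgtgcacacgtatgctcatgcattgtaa
CG12541: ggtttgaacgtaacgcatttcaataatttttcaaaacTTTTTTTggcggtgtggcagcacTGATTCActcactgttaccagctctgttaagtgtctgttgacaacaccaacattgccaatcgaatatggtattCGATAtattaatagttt
asRNA:CR46486: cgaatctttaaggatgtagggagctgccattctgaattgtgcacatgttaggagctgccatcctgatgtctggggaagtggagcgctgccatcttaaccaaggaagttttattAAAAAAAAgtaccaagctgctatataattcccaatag

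The region 1293 bp from CG3224 (X, 6660025 to 6660169) stood at the 10.47th to 25.9th percentile in regenerating libraries (median 18.1), at the 56.9th to 67.15th in controls (median 61.7) and at 72.7 and 76.3 in L3. All 6 regenerating libraries lay below every undamaged library. The difference was -44.2 points (SE 4.74, limma, adjusted p = 0.0015), and -40.9, -44.6 and -47.1 at 0, 15 and 25 h. Its summit sequence occurs once in the assembly.

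The region 93251 bp from CG40813 (X, 22049607 to 22049807) stood at 1.68 to 33.9 in regenerating (median 5.74), 28.3 to 82.5 in control (median 59.2) and 61.6 and 74.8 in L3 libraries. Regenerating libraries were lower, with an overlap between regenerating 0 h and control 25 h. The difference was -46.5 points (SE 6.62, limma, adjusted p = 0.00803). Its summit sequence occurs 6 times in the assembly, so which copy the reads came from is uncertain.

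The region 678 bp from CG12541 (X, 7066730 to 7066936) was the lone region with the largest rise among the 9. It stood at 42.0 to 80.03 in regenerating (median 68.9), 6.38 to 45.8 in control (median 15.1) and 32.1 and 38.3 in L3 libraries. The difference was 47.4 points (SE 6.97, limma, adjusted p = 0.00914), with 36.1, 56.5 and 49.5 at 0, 15 and 25 h. The groups overlapped only through 1 control 0 h and 1 regenerating 25 h library.

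The region 12845 bp from asRNA:CR46486 (2L, 1006583 to 1006814) stood at 2.91 to 46.0 in regenerating (median 18.6), 50.6 to 74.3 in control (median 67.6) and 38.3 and 47.0 in L3 libraries. Regenerating and control libraries did not overlap, and both L3 libraries lay below every control. The difference was -40.6 points (SE 6.08, limma, adjusted p = 0.0103).

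The other 5 called regions lost the call without at least 1 library. A region 2453 bp from CG14659 (3R, 4833750 to 4833927) stood at 31.2 to 47.4 in regenerating and 11.75 to 23.2 in control libraries, a difference of 22.1 points (SE 3.77, limma, adjusted p = 0.0201; called in 8 of 14 fits with 1 library left out). A region in an intron of nuf, an adaptor of recycling endosomes, with CG7768 as its nearest start (3L, 14212379 to 14212572), stood at 85.1 to 96.7 against 41.8 to 79.7, a difference of 26.8 points (SE 5.23, limma, adjusted p = 0.0371; 5 of 14). Neither region overlapped between regenerating and control libraries. A region in an annotated 1360 element 30159 bp from CR12460 (3L, 24503801 to 24503931) was lower in regenerating discs, by -32.6 points (SE 5.73, limma, adjusted p = 0.0226; 5 of 14), with 23.1 to 41.65 against 55.9 to 85.1. The last 2 overlapped between the groups: a region in an intron of Samuel rose by 16.5 points (limma, adjusted p = 0.0293; 5 of 14) and 1 that is 76289 bp from mir-10404-5 by 25.5 points (limma, adjusted p = 0.0328; 2 of 14). In 3 of the 9 the summit sequence occurs more than once in the assembly, and none lay within 200 bp of a start. At all 3 times the 9 regions differed in the direction of their mean.

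The single lone region called at one time was the promoter of mRpL50, a protein of the large mitochondrial ribosomal subunit (3L, 7243877 to 7244032). At 25 h it stood at the 94.9th and 95.2nd percentile in regenerating and the 72.0th and 73.3rd in control libraries, a difference of 22.4 points (SE 2.94, limma, adjusted p = 0.0297). At 15 h the order was turned, with 79.8 and 87.1 in regenerating against 96.5 and 93.8 in control libraries, a difference of -11.7. The difference at 15 h was not called (limma, adjusted p = 0.286), and each group held only 2 libraries. The change of the difference from 15 to 25 h was 34.1 points (SE 4.16, limma, interaction, adjusted p = 0.0452), and mRpL50 was the single region of 13545 called there. These calls rest on most of the libraries: the 25 h call was lost without either library of regenerating 0 h, control 25 h, regenerating 25 h or L3 (adjusted p up to 0.346), and the interaction held only without control 0 h replicate 1, control 0 h replicate 2 or regenerating 15 h replicate 2.

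**Figure D5:**
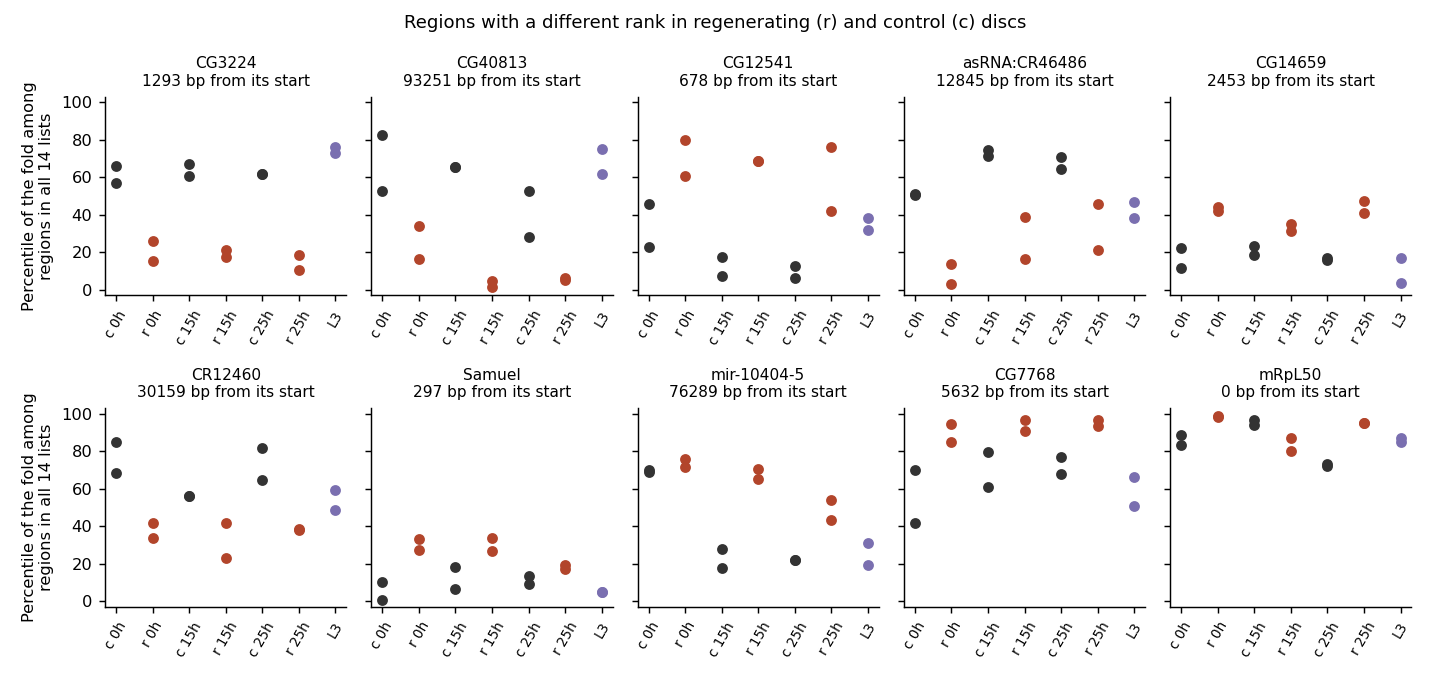
Percentile of the authors' fold among the 13545 regions in all 14 lists, in each library, for the 9 lone regions called over the 3 times and for mRpL50, which was called at 25 h. Regenerating libraries are red, controls black and L3 violet; near CG3224 all 6 regenerating libraries lie under every other library, and at mRpL50 the order of regenerating and control turns between 15 and 25 h.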

How the data were processed

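Peak lists of nucleosome-free and mononucleosome fragments from 14 libraries of wing discs were used. Per the labels' protocols, each library came from 10 discs. Peaks were deposited per library; STAR 2.4.0j, MACS2 and dm6 are named in the submitters' processing notes, while the sources used here do not state fragment limits, depth, peak threshold or how transposase offset and multiply mapped reads were handled. For each peak the deposited lists give the authors' fold enrichment over background (a ratio), −log10 p and −log10 q, and a score, which in 99.997% of peaks was 10 times the deposited −log10 q rounded down. The lowest −log10 q of a list was 2.00 to 2.22. No counts are held, so no count test or depth interval could be given, and percentiles of the fold within a list replaced the fold.

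Regions were merged, annotated with BDGP 6.54 (Ensembl release 115; 17683 genes, 5809 transposable elements, 6 arms) and given to the nearest start; "at a start" means within 200 bp. Coordinates are 1-based. A motif match is at least 1 hit in 200 bp. Per-library values were compared by exact permutation within time, single regions by limma 3.58.1 (R 4.3.3) on percentiles, called at an adjusted p of 0.05 and tested on simulated data. Other steps ran in Python 3.11.15 with pandas 2.3.3 and numpy 2.4.6; plots were drawn with matplotlib 3.10.9. Regions, gene lists (18 lists, 455 genes), motifs and tests were chosen with earlier results of these data known. Named were the 10 lone regions of highest percentile, the 5 widest and 5 farthest, up to 3 per list, those called, up to 6 gained or lost, and 3 on each side of the 12-list limit; a few of these are given only in counts. Sequences were shown only for regions outside arm 2R whose window holds no annotated UTR. Genes with 4 or more lone regions, and the small RNA genes, were named after their values were seen. Alternatives were the peak threshold, the merge and overlap rules, list number, start distance, ranking column and scale, replicate block, equal list length and leaving out each library.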

Additional observations from a re-analysis of the deposited data

Results flagged for a closer look

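Regenerating 15 h replicate 1 had no peak in 119 lone regions, while the other 5 regenerating libraries lacked a peak in 16 to 39. Its distance from them is larger than Dixon's 95% limit for 6 libraries. This was 1 of 6 such checks, and chance gives about 1 in 20. Its list held 21779 peaks, the fewest of the regenerating libraries.

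At the promoter region of mRpL50, the difference in percentile between regenerating and control discs changed by 34.11 points from 15 to 25 h (SE 4.16, limma, adjusted p = 0.0452 over 13545 regions), from -11.7 to 22.4 points. Each group held 2 libraries, and the adjusted p ran from 0.00519 to 0.44 when 1 library at a time was left out.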

How the results depend on the processing

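The number of lone regions was 2610 if mononucleosome peaks had to cover 50% of a region and 868 if all 14 lists had to hold a peak, and 1564 to 1736 when 1 library was left out. The share at a start was 45.56% under the first of these, 29.84% under the second and 35.84% with 500 bp as the distance. The first was no longer below the 42.9% of the other constant regions under the main rule. The share of the others under that alternative was not computed. The median percentile differed between regenerating and control libraries by 2.597 to 4.132 points, the width by 7.5 to 11.83 bp and the number of missing peaks by -72.17 to -39.83 when 1 library was left out. Ranking −log10 q in place of the fold called 192 regions in place of 122. Leaving out 1 library gave 52 to 154 called regions and 4 to 12 called lone regions. The cause of these shifts was not tested. Of 43 alternatives other than leaving out a library, 37 kept their direction and their side of the threshold, or for counts stayed within 1.5 times.

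In the ranks of the regions in all 14 lists, the replicate numbers did not pair the libraries. Deviations from the group means of same-numbered libraries correlated there at -0.223 to 0.242 over 21 pairs of groups. Between regenerating and control discs the correlation was -0.146, -0.00965 and -0.011 at 0, 15 and 25 h. Missing peaks did follow the number. In every regenerating and control group, replicate 1 lacked a peak in more lone regions than replicate 2. The counts ran from 201 against 104 in control 0 h to 38 against 25 in regenerating 25 h. In L3 the order was the other way, with 19 and 89. With the replicate block 120 regions and 9 lone regions were called, of which 108 and 8 were shared with the fit without it. The per-library differences under this pairing were 3.365 points, 9.667 bp and -56 missing peaks, each with an adjusted exact permutation p of 0.125. With percentiles taken only among regions in all 14 lists, the difference was 0.5805 points (exact permutation p = 0.611).

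Peak lists hold no read depth, so a missing peak can stand for a weak signal as well as for none, in both fragment classes.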
